A study of Mus musculus with 15 samples.

Results

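The array titles of the series end in animal numbers that form a lower and an upper range, and the mice described here are those of the upper range. They comprise 4 Cre/+ TAM mice (replicates 3 to 6) and 3 wt TAM mice (replicates 4 to 6), which makes 7 of the 15 arrays of the series, and the effect of deleting *Tgfbr2* was tested within these 7 arrays alone. Every mouse was a male on a C57BL/6 background with floxed alleles of *Tgfbr2* and a *R26-yfp* reporter. Cre/+ TAM mice also carried Cx3cr1CreERT2, a tamoxifen-dependent Cre inserted in 1 allele of *Cx3cr1*, which acts in microglia and in other macrophages and monocytes that express *Cx3cr1*. wt TAM mice lacked the Cre, so that their *Cx3cr1* alleles were both intact. Both groups received 8 mg tamoxifen (TAM) at an age of 6 to 8 weeks, on 2 occasions 48 h apart, and microglia were sorted 4 weeks later. Recombination removes exons 2 and 3, which encode the ligand-binding part of the receptor, without a shift of the reading frame. By the labels all cells were sorted as CD11b+/CD45low, whereas the methods of the study give a YFP+/CD45low gate for Cre/+ TAM mice and the CD11b+/CD45low gate for wt TAM mice. The effect of this gate, of tamoxifen given to Cre carriers and of the interrupted *Cx3cr1* allele cannot be told apart from that of the deletion here, because no oil-injected mouse (Cre/+ OIL) has a number in this range. The TAM mice of the lower range (Cre/+ TAM replicates 1 and 2, wt TAM replicates 1 to 3) served as a second set of animals that shared no array with the first. Replicate numbers follow the order of deposit and pair no mice.

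TGF-beta ligands bind the type II receptor encoded by *Tgfbr2*, which recruits and phosphorylates the type I receptor encoded by *Tgfbr1*. The activated complex phosphorylates Smad2 and Smad3, which enter the nucleus with Smad4 and switch target genes on or off. In the brain this pathway is known for its part in the identity of microglia, the resident macrophages of the parenchyma, and for its restraint of inflammatory genes in macrophages.

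RNA was amplified and hybridised to an Affymetrix mouse gene array, and each value below is a log2 signal after RMA, so that a difference of 1 is a 2-fold change. Each transcript cluster, a group of probes for 1 transcript, was tested with limma, and p-values were adjusted by the Benjamini-Hochberg method over 32471 clusters with a gene symbol. The signals of the 7 arrays correlated at 0.972 to 0.988. The array of wt TAM mouse 4 stood apart, with a median signal of 4.55 against 4.36 to 4.45 on the other 6 arrays, and a mean correlation of 0.9746 with the others, which had 0.983 to 0.985. The counts of called clusters and of list members are given with and without this array. The gene lists were chosen with earlier results of these data known, and some genes stand in several lists. Their counts are therefore descriptions and not independent evidence. The 14 markers of microglia were all measured, with a mean signal of 10.1 to 10.2 in Cre/+ TAM mice and 9.90 to 10.3 in wt TAM mice. The corresponding means for markers of monocytes, neutrophils, T and NK cells, B cells and neurons lay between 3.71 and 4.23 in Cre/+ TAM mice and between 3.70 and 4.45 in wt TAM mice. Those of astrocytes, oligodendrocytes, and endothelial and mural cells were 4.15 to 4.65 in Cre/+ TAM mice and 4.12 to 4.86 in wt TAM mice. Markers of red blood cells had 4.59 to 5.02 in Cre/+ TAM mice and 4.50 to 5.79 in wt TAM mice. Markers of dendritic cells, a list that includes the microglial gene *Siglech*, had 5.07 to 5.13 and 4.98 to 5.25.

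At an adjusted p under 0.05, *Vcam1*, *Ctla2b* and *Pf4* were called higher in Cre/+ TAM mice, and no cluster was called lower. These 3 clusters were 0.00924% of those tested, and 0 clusters (0%) passed in the other direction. At an unadjusted p under 0.05, 666 clusters (2.05%) were higher and 892 (2.75%) lower. With no change at all, a share of about 0.05 of the clusters, both directions together, would be expected under that p. The unpaired test named in the study's methods called none in either direction after adjustment. *Pf4*, on chromosome 5 and encoding the platelet and macrophage chemokine CXCL4, had signals of 6.04, 6.07, 6.47 and 6.38 in Cre/+ TAM mice 3, 4, 5 and 6, against 4.77, 4.05 and 4.18 in wt TAM mice 4, 5 and 6. All 4 Cre/+ TAM mice lay above all 3 wt TAM mice, by a log2 fold change of 1.90 ± 0.193 (SE, adjusted p = 0.0187). *Vcam1*, on chromosome 3 and encoding an adhesion molecule that binds the integrin VLA-4 on leukocytes, had signals of 6.03, 6.10, 5.92 and 5.88 in Cre/+ TAM mice, against 4.66, 4.53 and 4.78 in wt TAM mice. The spread within each group was far smaller than the gap between them, with a log2 fold change of 1.33 ± 0.123 (SE, adjusted p = 0.0142). *Ctla2b*, on chromosome 13, encodes a relative of the propeptides that inhibit cysteine proteases such as cathepsins. It had signals of 8.00, 7.99, 7.98 and 7.91 in Cre/+ TAM mice, against 6.68, 6.39 and 6.77 in wt TAM mice, a log2 fold change of 1.36 ± 0.128 (SE, adjusted p = 0.0142). The Cre/+ TAM mice had an SD of 0.0411 for this gene, against 0.197 in wt TAM mice.

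These calls depended on single arrays and on where the spread was estimated. Without wt TAM mouse 4 *Pf4* alone was called (adjusted p = 0.0237), and *Vcam1* and *Ctla2b* kept log2 fold changes of 1.33 and 1.39 (adjusted p = 0.069 for each). Without Cre/+ TAM mouse 3, 4, 5 or 6, or without wt TAM mouse 5, no cluster was called, and without wt TAM mouse 6 the calls were *Ctla2b*, *Vcam1* and *Ms4a7*. When the spread came from all 12 TAM arrays, with the same 7 arrays giving the fold change, *Ctla2b* alone was called (adjusted p = 0.0104, against 0.519 for *Vcam1* and 0.321 for *Pf4*). An exact permutation test of a single gene has 35 splits of 4 against 3 and cannot go below 0.0571 (two-sided), so that it cannot reach 0.05 here.

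**Figure D1:**
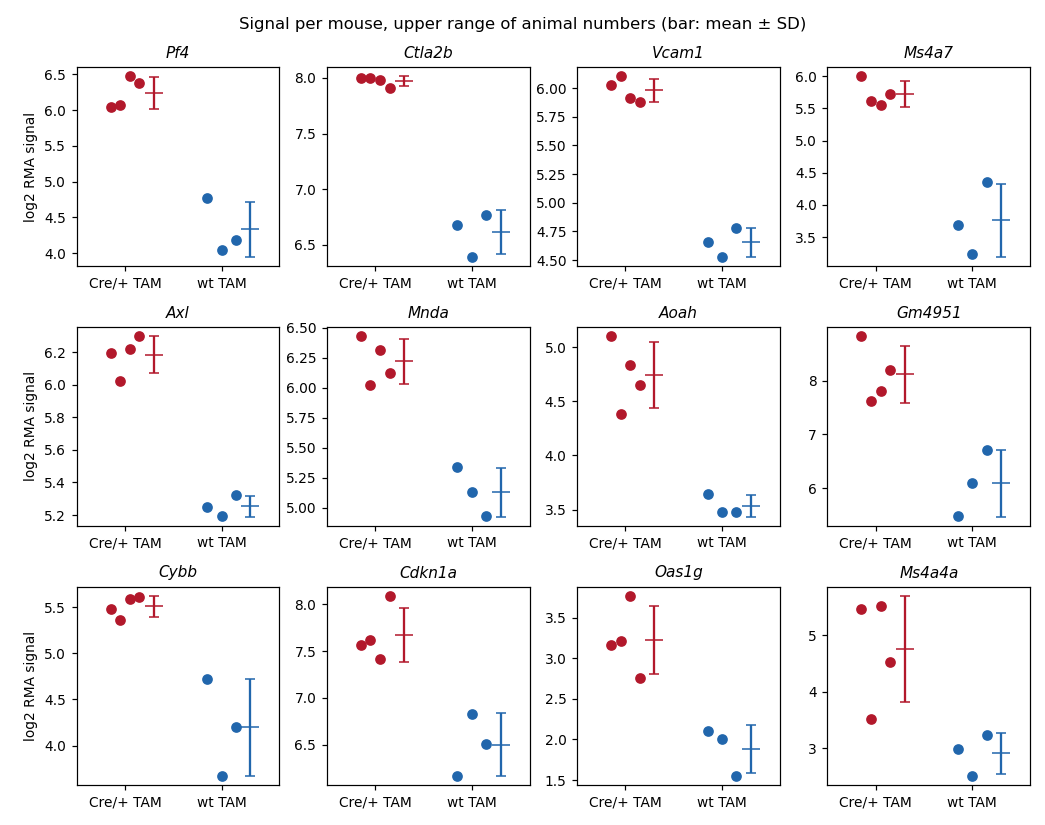
Log2 RMA signal (y axis) of 12 genes in each mouse, with the 4 Cre/+ TAM mice in red on the left and the 3 wt TAM mice in blue on the right, in the order of replicate numbers. Bars are mean ± SD. In every panel the 4 Cre/+ TAM mice lie above the 3 wt TAM mice, closely together for *Ctla2b* (7.91 to 8.00) and widely spread for *Ms4a4a* (3.52 to 5.52).

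At a fold of at least 2 and an unadjusted p under 0.05, the threshold that the study uses, 25 clusters (0.077% of those tested) were higher and 11 (0.0339%) were lower in Cre/+ TAM mice. Without wt TAM mouse 4 these counts were 28 and 13, without wt TAM mouse 5 they were 62 and 28, and without wt TAM mouse 6 they were 51 and 28. Of the 25 higher clusters, 18 were of protein-coding genes, beside 21112 of all 32471 clusters. In 19 of the 25 all 4 Cre/+ TAM mice lay above all 3 wt TAM mice, which held for 2.43% of all clusters. The threshold itself favours such separation, because it was applied to the same 7 arrays. Besides the called genes the 25 held macrophage genes (*Ms4a7*, *Ms4a4a*, *Cybb*, *Aoah*), interferon-inducible genes (*Gm4951*, *Iigp1*, *Oas1g*, *Mnda*, *Ifi204*), antigen presentation genes (*Cd74*, *H2-Aa*, *H2-Ab1*, *H2-DMb2* and the *H2-Q6*/*H2-Q8* cluster) and the cell cycle inhibitor *Cdkn1a*. The rest were *Gpr65*, the pseudogene *LOC100861738*, the small RNAs *Gm22305* and *Gm22516*, and *n-R5s54*, *Gm23122* and *Gm26780* of unmatched type. All of these but *Gpr65* had their lowest signal of the 7 mice in wt TAM mouse 4. The 25 higher clusters had a median signal of 5.41 over the 7 mice, and 18 of them exceeded the median of all clusters (4.42). The dimmest of the 25 was *Oas1g*, with a mean signal of 2.65. The 11 lower clusters were dimmer as a set, with a median signal of 3.00, and only 2 of them exceeded the median of all clusters. Of the 11, 6 had probes that can bind other transcripts, against 2 of the 25. In 6 of the 11 all 4 Cre/+ TAM mice lay below all 3 wt TAM mice (2.91% of all clusters), which the threshold also favours. The 11 included a segment of the immunoglobulin kappa locus, a defensin (*Defb11*), 2 olfactory receptors (*Olfr917*, *Olfr1034*) and *S100a8*, a neutrophil gene with signals of 2.65, 2.51, 2.37 and 2.54 in Cre/+ TAM mice and 3.41, 2.78 and 4.79 in wt TAM mice. None passed the adjusted test. The markers of neutrophils had a mean signal of 4.08 to 4.23 in Cre/+ TAM mice and 4.30 to 4.45 in wt TAM mice, and their part in the value of *S100a8* was not tested.

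**Figure D2:**
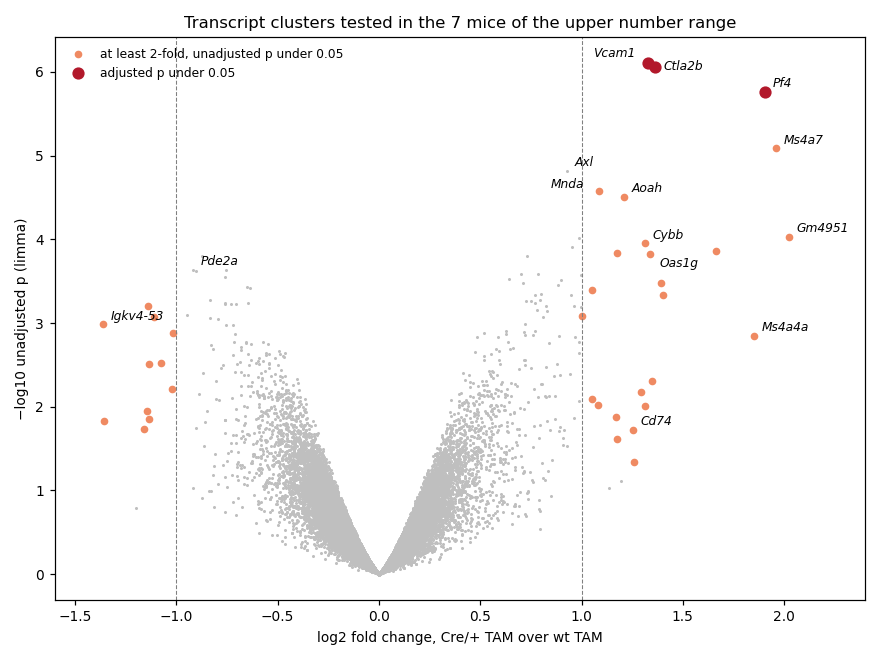
Log2 fold change of Cre/+ TAM over wt TAM (x axis) against the −log10 of the unadjusted limma p (y axis) for the clusters tested in the 7 mice. Dark red points are the 3 called clusters, orange points the other clusters at 2-fold or more with an unadjusted p under 0.05, grey points the rest, and dashed lines mark 2-fold.

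The upstream sequences of *Pf4* and *Ctla2b* are shown because these genes rose, and those of *Cybb* and *Oas1g* because they hold matches to an interferon element. RefSeq (GRCm38.p6) gave promoter windows, from 250 bases before to 50 bases after the gene start, for 11 of the 24 genes at 2-fold or more that have 1 symbol, with 2 windows each for *Cdkn1a* and *Ms4a7*. Capitals mark matches, on either strand, to the core of the interferon-stimulated response element (2 GAAA repeats with any 2 bases between them) or to GAGGAAGT, a site of the macrophage factor PU.1. The windows are chr5:90772185-90772484 (plus strand), chr13:60897398-60897697 (minus strand), chrX:9469275-9469574 (minus strand) and chr5:120887564-120887863 (minus strand), each printed from 5′ to 3′ along the gene.
Pf4: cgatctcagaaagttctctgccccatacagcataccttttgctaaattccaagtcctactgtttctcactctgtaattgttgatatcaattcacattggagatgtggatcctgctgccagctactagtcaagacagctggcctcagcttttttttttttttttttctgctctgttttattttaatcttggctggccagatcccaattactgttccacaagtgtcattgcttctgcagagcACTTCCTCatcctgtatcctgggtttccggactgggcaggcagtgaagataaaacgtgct
Ctla2b: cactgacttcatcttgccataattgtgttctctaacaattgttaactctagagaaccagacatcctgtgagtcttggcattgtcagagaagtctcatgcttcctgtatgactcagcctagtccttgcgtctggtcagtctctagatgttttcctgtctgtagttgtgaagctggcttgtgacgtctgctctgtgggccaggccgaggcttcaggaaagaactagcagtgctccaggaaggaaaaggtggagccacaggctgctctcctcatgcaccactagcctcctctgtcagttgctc
Cybb: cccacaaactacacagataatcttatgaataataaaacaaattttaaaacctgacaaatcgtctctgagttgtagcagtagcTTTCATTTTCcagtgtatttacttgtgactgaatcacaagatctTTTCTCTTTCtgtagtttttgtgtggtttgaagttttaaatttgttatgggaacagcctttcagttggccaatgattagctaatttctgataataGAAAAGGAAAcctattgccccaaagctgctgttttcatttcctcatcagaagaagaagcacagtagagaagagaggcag
Oas1g: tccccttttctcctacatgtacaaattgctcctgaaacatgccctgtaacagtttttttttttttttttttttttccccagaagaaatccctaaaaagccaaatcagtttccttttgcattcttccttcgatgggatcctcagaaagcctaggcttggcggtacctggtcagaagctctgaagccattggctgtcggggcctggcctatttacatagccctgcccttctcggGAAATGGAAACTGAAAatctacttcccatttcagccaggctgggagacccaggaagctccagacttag
The core of the interferon-stimulated response element stood in 3 of the 11 genes (*Aoah*, *Cybb* and *Oas1g*), and in 3.87% of the 17423 measured genes with a window (3.44% of all 32851 windows of the same length). *Cybb* held 3 matches and *Oas1g* held 2 that overlap, which began 18 and 12 bases before the gene start. GAGGAAGT stood in 1 of the 11 genes (*Pf4*, 10 bases before the start) and in 3.51% of the measured genes. GGNNTTTCC, a form of the kappaB site, stood in 1 of the 11 (*Ms4a4a*) and in 6.84% of the measured genes. GTCTAGAC, a palindromic Smad site, stood in 0 of the 11 and in 0.241% of the measured genes. Within the windows of these 11 genes no match to 1 motif overlapped a match to another motif, and a match is a description of the letters only.

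The pathway whose receptor was deleted showed no called change in its own components. *Tgfbr2* itself had signals of 8.14, 8.28, 8.05 and 7.91 in Cre/+ TAM mice, against 8.08, 8.19 and 8.26 in wt TAM mice, and the groups overlapped. Its log2 fold change of -0.08 had a 95% interval of -0.37 to 0.21. The array summarises probes along the whole transcript, most of which lies outside the deleted exons, so that this value does not check the recombination. Of 22 measured genes for ligands, activators and receptors of the TGF-beta family, none was higher and 1 was lower at an unadjusted p under 0.05, beside 2.06% higher and 2.76% lower over all 30884 genes, and the median log2 fold change was 0.00 beside -0.01 over all genes. Without wt TAM mouse 4 these counts were the same, beside 2.38% higher and 2.37% lower over all genes. The 1 gene was *Acvr1b*, a type I activin receptor, with 5.46, 5.70, 5.67 and 5.51 in Cre/+ TAM mice and 5.88, 5.89 and 6.05 in wt TAM mice (log2 fold change -0.36 ± 0.123, adjusted p = 0.919). *Tgfb1*, the ligand that microglia make, had a log2 fold change of 0.04 (95% interval -0.23 to 0.31), and *Tgfbr1* one of 0.10 (-0.18 to 0.38). Of 24 Smads and feedback genes, 1 was higher and 1 lower at that p, and 1 was higher and 0 lower without wt TAM mouse 4. *Id2*, an inhibitor of basic helix-loop-helix factors, had a log2 fold change of 0.42, and *Smad9*, a Smad of the BMP branch, one of -0.34 (-0.21 without wt TAM mouse 4). Classical targets of the pathway had intervals that include 0, namely *Smad7* with 0.08 (-0.23 to 0.39) and *Skil* with 0.15 (-0.22 to 0.52).

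Genes that define microglia were at closely similar levels in both groups, with *Cx3cr1* as the exception. *Cx3cr1*, the fractalkine receptor, had 11.41, 11.38, 11.24 and 11.38 in Cre/+ TAM mice, against 11.48, 11.82 and 11.75 in wt TAM mice. All 4 Cre/+ TAM mice lay below all 3 wt TAM mice, with a log2 fold change of -0.33 ± 0.129 (unadjusted p = 0.0283, adjusted p = 0.919), and of -0.43 without wt TAM mouse 4. Cre/+ TAM mice have only 1 uninterrupted *Cx3cr1* allele, and the part of this in the value was not tested. The other 7 genes that the study uses for microglial identity had unadjusted p-values of 0.0714 or more. *P2ry12*, the purinergic receptor for ADP, had 11.37, 11.30, 11.43 and 11.44 in Cre/+ TAM mice and 11.06, 11.34 and 11.16 in wt TAM mice (log2 fold change 0.20, 95% interval -0.07 to 0.47). *Tmem119*, a membrane protein that marks microglia, had a log2 fold change of 0.08 (-0.26 to 0.43), *Sall1*, a transcription factor of microglial identity, one of 0.01 (-0.30 to 0.33), and *Csf1r*, the receptor for the survival factors CSF1 and IL-34, one of 0.06 (-0.20 to 0.32). These intervals lie within 2-fold in either direction. The 8 genes had a median log2 fold change of 0.07, and 6 were positive, but without wt TAM mouse 4 the median was -0.01 and 3 were positive. Of 44 other genes of resting microglia, 3 were higher (*Gpr84*, *Havcr2*, *Upk1b*) and 1 was lower (*Crybb1*) at an unadjusted p under 0.05. Over all genes 2.06% were higher and 2.76% lower at that p, and the 44 had a median of 0.14. Without wt TAM mouse 4, 1 was higher and 1 lower, which is 2.27% each, beside 2.38% and 2.37% over all genes, with a median of 0.04. *Gpr84*, a receptor for medium-chain fatty acids, had the largest of these log2 fold changes (0.88), with 7.34, 7.62, 7.82 and 7.91 in Cre/+ TAM mice and 6.61, 6.74 and 7.03 in wt TAM mice. Of 21 transcription factors of microglia, 2 were higher at that p, *Bhlhe41* (0.34) and *Junb* (0.40), beside 2.06% over all genes. Without wt TAM mouse 4, 0 of the 21 were higher.

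**Figure D3:**
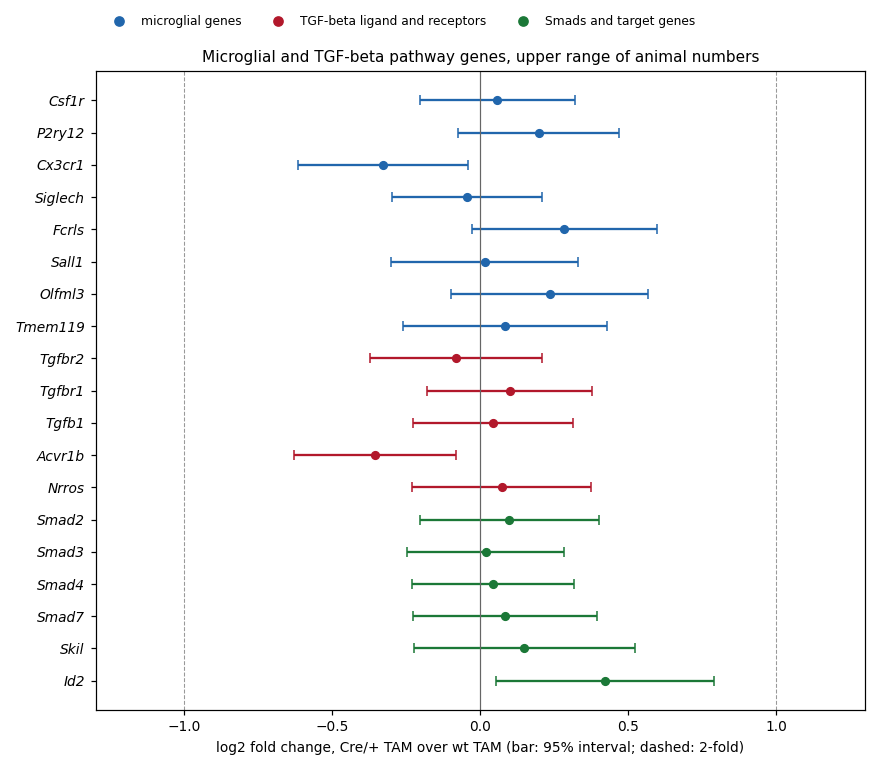
Log2 fold change of Cre/+ TAM over wt TAM with its 95% interval (x axis) for microglial genes (blue), TGF-beta ligand and receptor genes (red) and Smads and target genes (green). The dashed lines mark 2-fold, and no interval reaches them. The intervals of *Cx3cr1*, *Acvr1b* and *Id2* exclude 0 before adjustment.

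Macrophage genes were among the largest differences. A list of 26 genes, most of them for secreted or membrane proteins, was put together from genes that the study names, many of them for results on arrays that include these 7, so that its direction is not independent evidence. Of the 26, 18 were higher and none lower at an unadjusted p under 0.05, beside 2.06% higher and 2.76% lower over all genes, with a median log2 fold change of 0.72, and 17 were higher without wt TAM mouse 4. *Ms4a7*, a membrane protein of the MS4A family on chromosome 19, had 6.00, 5.61, 5.55 and 5.73 in Cre/+ TAM mice and 3.69, 3.23 and 4.36 in wt TAM mice, a log2 fold change of 1.96 ± 0.236 (adjusted p = 0.0662). Its adjusted p ranged from 0.0246 to 0.425 over the alternatives. *Ms4a4a*, its neighbour in the same gene family, was uneven among the Cre/+ TAM mice, with 5.47, 3.52, 5.52 and 4.53, against 2.99, 2.50 and 3.23 in wt TAM mice (log2 fold change 1.85 ± 0.426, adjusted p = 0.639). *Cybb*, the catalytic subunit of the phagocyte NADPH oxidase, had 5.48, 5.36, 5.58 and 5.61 in Cre/+ TAM mice and 4.72, 3.67 and 4.20 in wt TAM mice, and *Aoah*, an enzyme that inactivates bacterial lipopolysaccharide, had 5.10, 4.38, 4.84 and 4.65 in Cre/+ TAM mice and 3.65, 3.48 and 3.48 in wt TAM mice. Their log2 fold changes were 1.31 (adjusted p = 0.323) for *Cybb* and 1.21 (adjusted p = 0.143) for *Aoah*, and *Cybb* had 1.57 (adjusted p = 0.0911) without wt TAM mouse 4. *Axl*, a receptor tyrosine kinase that takes part in the uptake of dying cells, had a smaller but even difference, with 6.20, 6.02, 6.22 and 6.30 in Cre/+ TAM mice and 5.25, 5.19 and 5.32 in wt TAM mice (log2 fold change 0.93 ± 0.120, adjusted p = 0.0987). Of 18 measured Ms4a genes 7 were higher and 0 lower at an unadjusted p under 0.05, beside 2.06% higher over all genes, but their median log2 fold change was 0.03. Without wt TAM mouse 4, 5 were higher and the median was 0.12.

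Of 34 genes of disease-associated microglia, a state described around amyloid and dying cells, 10 were higher and 0 lower at an unadjusted p under 0.05, beside 2.06% higher and 2.76% lower over all genes, with a median log2 fold change of 0.18, and 9 were higher with a median of 0.10 without wt TAM mouse 4. Beside *Axl* they were *Apoe*, *Cd52*, *Clec7a*, *Lgals3bp*, *Lilrb4*, *Lpl*, *Ch25h*, *Itgax* and *Cst7*. *Apoe*, the carrier of lipids between brain cells, had 6.49, 6.45, 6.44 and 6.25 in Cre/+ TAM mice, against 5.70, 5.77 and 5.83 in wt TAM mice, a log2 fold change of 0.64 ± 0.119 (adjusted p = 0.397). *Cd52*, a small surface glycoprotein of leukocytes, had a log2 fold change of 0.78, and *Lpl*, the lipoprotein lipase, one of 0.55. None of these was called.

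Markers of border-associated macrophages, which lie in the meninges and around vessels and share the *Cx3cr1* driver, moved in part with these genes. By the methods the meninges were rolled off the brains before dissociation, and only CD45low cells were collected. Of 18 measured, 6 were higher at an unadjusted p under 0.05 (*Pf4*, *Ms4a7*, *Mrc1*, *Siglec1*, *Dab2* and *Clec4n*), beside 2.06% over all genes, and none lower. Their median log2 fold change was 0.12, and without wt TAM mouse 4 it was 0.18 and 7 were higher. Their mean signal was 4.86 to 5.06 in Cre/+ TAM mice and 4.56 to 4.68 in wt TAM mice. *Mrc1*, the mannose receptor, had 6.49, 5.76, 6.76 and 6.10 in Cre/+ TAM mice and 5.21, 5.19 and 5.54 in wt TAM mice (log2 fold change 0.97, adjusted p = 0.639). Of the 18, 15 had positive log2 fold changes. Markers that did not pass that p included *Lyve1*, *Cd163*, *Folr2* and *Cbr2*. Their log2 fold changes were -0.09, 0.05, 0.10 and 0.14, each with an interval that includes 0. In bulk RNA, a change in the number of cells of a type cannot be told apart from a change of RNA per cell, and the part of such macrophages in *Pf4*, *Ms4a7* and *Mrc1* was not tested.

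Genes of antigen presentation by MHC class II separated the Cre/+ TAM mice from one another. *Cd74*, the invariant chain, had 7.82, 6.28, 6.06 and 8.07 in Cre/+ TAM mice 3, 4, 5 and 6, against 5.91, 5.61 and 5.88 in wt TAM mice. *H2-Ab1*, a beta chain, had 8.10, 6.87, 6.50 and 8.32 in Cre/+ TAM mice and 6.28, 6.23 and 6.33 in wt TAM mice, and *H2-Aa*, an alpha chain, had 5.78, 3.90, 4.40 and 5.83 in Cre/+ TAM mice and 4.17, 3.35 and 3.88 in wt TAM mice. In Cre/+ TAM mice 3 and 6 each of these 3 genes lay well above both other Cre/+ TAM mice, whereas in Cre/+ TAM mouse 4 *H2-Aa* lay within the range of wt TAM mice. *H2-Eb1*, another beta chain, had 4.77, 3.90, 3.90 and 4.88 in Cre/+ TAM mice and 4.17, 4.23 and 3.85 in wt TAM mice. *Ciita*, the transactivator of these genes, had 5.96, 5.22, 4.96 and 5.23 in Cre/+ TAM mice and 5.48, 5.23 and 4.89 in wt TAM mice. The peptide editor *H2-DMb2* followed another order, with 6.27, 6.72, 6.72 and 6.49 in Cre/+ TAM mice and 5.43, 6.07 and 5.15 in wt TAM mice (log2 fold change 1.00, adjusted p = 0.503). All 12 measured genes of the list had positive log2 fold changes, with a median of 0.34, and 11 had without wt TAM mouse 4. At an unadjusted p under 0.05, 6 were higher with and without that mouse, beside 2.06% over all genes with it. None was called, with adjusted p-values of 0.919 for *Cd74*, *H2-Ab1* and *H2-Aa*.

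**Figure D4:**
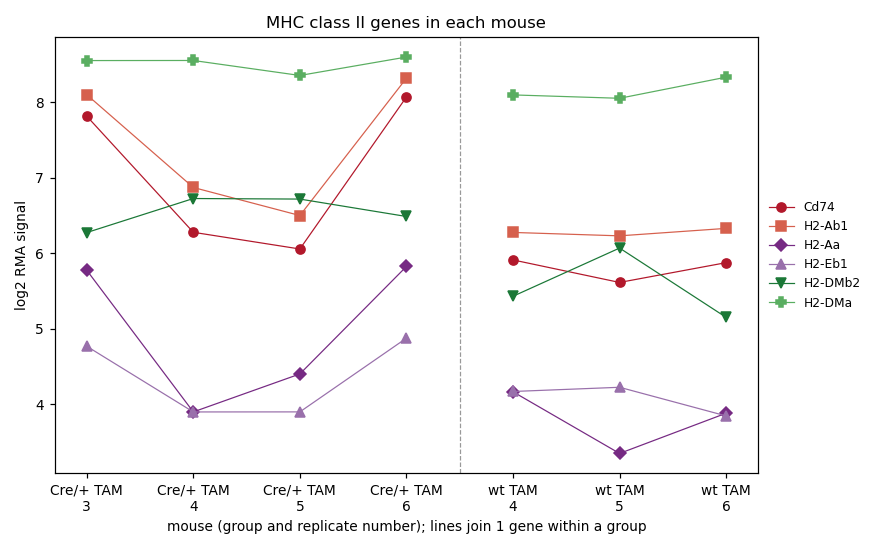
Log2 RMA signal (y axis) of 6 MHC class II genes in each mouse (x axis, group and replicate number), with the 4 Cre/+ TAM mice on the left and the 3 wt TAM mice on the right. Lines join the values of 1 gene within a group and do not stand for an order. *Cd74*, *H2-Ab1*, *H2-Aa* and *H2-Eb1* are high in Cre/+ TAM mice 3 and 6, while *H2-DMb2* and *H2-DMa* are not.

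MHC class I genes differed in how even they were among the Cre/+ TAM mice. *H2-K1*, a classical class I heavy chain, had 7.40, 7.38, 7.29 and 7.51 in Cre/+ TAM mice, against 6.57, 6.60 and 6.83 in wt TAM mice (log2 fold change 0.73 ± 0.125, adjusted p = 0.323). *Nlrc5*, the transactivator of class I genes, had a log2 fold change of 0.64. Of 23 measured genes 4 were higher (*H2-K1*, *Nlrc5*, *H2-Q7* and *H2-M3*) and 0 lower at an unadjusted p under 0.05, beside 2.06% higher and 2.76% lower over all genes. Without wt TAM mouse 4 the counts were also 4 and 0. *H2-Q7* was less even than *H2-K1*, with 7.96, 7.76, 7.37 and 8.51 in Cre/+ TAM mice and 7.10, 6.60 and 7.03 in wt TAM mice. The probes of *H2-Q7* can bind its close relatives. A dimmer cluster of *H2-Q5*, a gene that the study names, had a log2 fold change of 0.76 (limma, unadjusted p = 0.0014, adjusted p = 0.639). The brightest cluster of *H2-Q5*, which stands for it in the lists, had -0.07 to 0.39 over the alternatives.

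Interferon-inducible genes were higher in part. Of 18 immunity-related and guanylate-binding GTPases, which attack vacuoles of intracellular microbes, 7 were higher and 0 lower at an unadjusted p under 0.05, beside 2.06% higher and 2.76% lower over all genes, with a median log2 fold change of 0.44, and also 7 without wt TAM mouse 4. *Gm4951*, an interferon-inducible GTPase, had the largest log2 fold change among genes at that p, 2.02 ± 0.324 (adjusted p = 0.323), with 8.83, 7.63, 7.81 and 8.21 in Cre/+ TAM mice and 5.48, 6.09 and 6.72 in wt TAM mice. *Iigp1*, which disrupts the vacuole of Toxoplasma, had 5.65, 4.40, 4.79 and 5.19 in Cre/+ TAM mice and 3.82, 3.21 and 3.78 in wt TAM mice. The *Irgm1* and *Irgm2* genes, regulators of the same family, had log2 fold changes of 0.16 and 0.15 with overlapping groups. Of 49 other interferon-stimulated genes, 12 were higher and 0 lower, with a median of 0.21, and 8 were higher and 1 lower without wt TAM mouse 4. *Oas2*, a sensor of double-stranded RNA, had 5.50, 5.49, 5.37 and 5.17 in Cre/+ TAM mice and 4.76, 4.63 and 4.67 in wt TAM mice, and *Oas1g*, of the same family, had 3.16, 3.21, 3.77 and 2.76 in Cre/+ TAM mice and 1.55 to 2.10 in wt TAM mice. *Ifitm3*, which blocks viral entry, had a log2 fold change of 0.65, while *Bst2* (tetherin) and *Cxcl10* had 0.16 and 0.21 with overlapping groups.

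Chemokines and cytokines other than *Pf4* showed smaller differences. Of 39 measured ligands, 9 were higher and 0 lower at an unadjusted p under 0.05, beside 2.06% higher and 2.76% lower over all genes, and 7 were higher without wt TAM mouse 4. *Tnfsf13b*, the B cell survival factor BAFF, had 7.23, 6.82, 7.49 and 7.18 in Cre/+ TAM mice and 6.34, 6.47 and 6.35 in wt TAM mice, a log2 fold change of 0.80. *Tnfsf8*, the CD30 ligand, had a log2 fold change of 0.96, *Tnf* one of 0.55 (unadjusted p = 0.0378, and 0.0834 without wt TAM mouse 4) and *Ccl7* one of 0.48, while *Ccl2* and *Ccl3* had 0.19 and -0.04 with overlapping groups. Of 31 cell cycle genes 6 were higher at that p, beside the same 2.06% over all genes, and 4 were without wt TAM mouse 4. The largest log2 fold change of these 6 was that of *Cdkn1a*, the inhibitor p21 that arrests the cycle, with 7.56, 7.62, 7.42 and 8.09 in Cre/+ TAM mice and 6.16, 6.83 and 6.50 in wt TAM mice (log2 fold change 1.17, adjusted p = 0.323). The 31 genes had a median log2 fold change of 0.11 (0.13 without wt TAM mouse 4), and 24 were positive. Among genes of dividing cells, *Ccnb2*, a cyclin, had 0.36, *Cdk1*, the mitotic kinase, 0.56 and *Top2a*, a topoisomerase, 0.38. *Cdk1* had 5.15 in Cre/+ TAM mouse 4, against 4.45 to 4.56 in the other Cre/+ TAM mice. *Pde2a*, a phosphodiesterase that breaks down cAMP and cGMP, was lower, at 4.60, 5.23, 5.02 and 4.75 in Cre/+ TAM mice and 5.95, 5.82 and 5.68 in wt TAM mice (log2 fold change -0.92 ± 0.165, adjusted p = 0.393). Its mean signal of 5.29 over the 7 mice lay between the median (4.42) and the 75th percentile (5.79) of the tested clusters. *Gpr165*, an orphan receptor singled out after its values were seen, had 8.33, 8.43, 8.10 and 8.12 in Cre/+ TAM mice and 8.85, 9.45 and 9.14 in wt TAM mice (log2 fold change -0.90, adjusted p = 0.393).

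Most clusters that were 2-fold or more higher in the upper-range mice had larger log2 fold changes in the lower-range mice. In the lower-range mice, 2 Cre/+ TAM against 3 wt TAM, 10 clusters were called higher (0.0308%) and 0 lower, and 276 were higher at 2-fold or more with an unadjusted p under 0.05 (0.85%). The 276 rest on fewer mice than the 25 of the upper range, which became 28 to 62 when 1 mouse was left out. These counts are therefore not directly comparable. Of the 25 clusters at 2-fold or more in the upper-range mice, 20 were also among these 276, which is 80% of the 25 and 7.25% of the 276. None of the 11 lower clusters was among the 68 (0.209%) that were lower by 2-fold or more in the lower-range mice. Of the 11, 10 were negative in the lower-range mice, with a median log2 fold change of -0.36, beside 17606 negative of all 32471 clusters. The 25 had a median log2 fold change of 1.31 in the upper-range mice and 2.60 in the lower-range mice, where 24 were positive and 19 were larger, beside 14865 positive and 18420 larger of all 32471 clusters. *Pf4* had log2 fold changes of 1.90 in the upper-range mice and 4.66 in the lower-range mice, and *Vcam1* had 1.33 and 3.33. *Ctla2b* had 1.36 and 1.08, and *Gm4951* had 2.02 and 2.35. The test of the difference between the sets, over the 12 TAM arrays, gave adjusted p-values of 0.0753 for *Pf4*, 0.207 for *Vcam1*, 0.93 for *Ctla2b* and 0.973 for *Gm4951*, so that none of these 4 was shown to differ.

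The difference itself was called for 19 clusters, 18 with a lower log2 fold change in the upper-range mice (0.0554%) and 1 with a higher one (0.00308%). *Mmp13*, a collagenase, had 2.27, 2.88, 2.41 and 2.30 in Cre/+ TAM mice and 2.74, 2.48 and 2.16 in wt TAM mice of the upper range, where the groups overlapped, while in the lower range it had 8.93 and 7.43 in Cre/+ TAM mice and 2.25, 2.21 and 2.29 in wt TAM mice (difference -5.93 ± 0.432, adjusted p = 9.44e-05). *Ms4a7* (difference -3.76, adjusted p = 0.0117) and *Cybb* (-3.09, adjusted p = 0.0106) were at 2-fold or more in both sets and larger in the lower range. *Ms4a14* (-3.61), *Ifitm3* (-2.61), *Slfn2* (-1.28) and *Ccl7* (-2.36) had log2 fold changes of 0.57, 0.65, 0.44 and 0.48 in the upper-range mice. *Cd300ld*, *Scimp*, *Ifitm2* and *Mndal* had log2 fold changes of -0.04, 0.06, 0.05 and 0.18 in the upper-range mice and 3.70, 2.43, 4.72 and 4.26 in the lower-range mice. *Emr4*, an adhesion receptor of macrophages, had log2 fold changes of -0.68 in the upper-range mice (adjusted p = 0.749) and 2.65 in the lower-range mice. *Csmd3* was the 1 cluster with a higher value, with log2 fold changes of -0.07 and -1.44. The number of calls rested on single mice, with 182 without Cre/+ TAM mouse 2, 5 without wt TAM mouse 2 or 6, 7 without wt TAM mouse 4 or 5, 11 without wt TAM mouse 1, and 10 to 12 without Cre/+ TAM mouse 3, 4, 5 or 6. *Mmp13*, *Ms4a14*, *Cybb* and *Scimp* were called in each of the fits that left out 1 of the 12 mice. What else differed between the 2 sets of mice was not tested.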

How the data were processed

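RNA of sorted microglia was amplified with the NuGEN Ovation Pico WTA kit and hybridised to Affymetrix mouse gene arrays, 1 array for each mouse. The authors deposited log2 signals per transcript cluster after RMA, in a workbook and again in a series matrix; the RMA software version and genome build, both not given in the sources used here, are unknown. The workbook also holds the authors' averages, fold changes and p-values of their own comparisons, which were not used. Arrays have no read depth, and the number of mice limits the precision.

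Groups came from the source labels and animal numbers from the titles. Replicates were separate mice. The 4 Cre/+ TAM and 3 wt TAM arrays of the upper range of animal numbers were fitted alone in limma 3.58.1 (R 4.3.3; lmFit and eBayes), over 32471 clusters with a gene symbol, with Benjamini-Hochberg adjustment. The code was tested on simulated data. A cluster was called at an adjusted p under 0.05. The difference from the lower-range mice was an interaction term over the 12 TAM arrays. A listed gene with several clusters was represented by its brightest.

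Named genes were the called clusters, or up to 10 in a direction with the smallest p among those at 2-fold or more and an unadjusted p under 0.05, up to 4 members of each list, genes the study names, *Tgfbr2*, and the 6 called differences with the smallest p. Further list members and called differences that are named were chosen after their values were seen. The members and lists were chosen with earlier results of these data known. Alternatives changed the normalization, the source of the values (workbook or matrix), the clusters tested, the variance model, the array weights, the arrays that give the spread, the test and the arrays kept. The counts of list members without wt TAM mouse 4 were added after seeing the data. Promoter windows came from RefSeq (GRCm38.p6), and figures were drawn with Python 3.11.15 and matplotlib 3.10.9.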

Additional observations from a re-analysis of the deposited data

Results flagged for a closer look

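The change with *Tgfbr2* deletion differed between the upper-range and the lower-range mice for 19 clusters, by the limma interaction test over the 12 TAM arrays. The differences, as the log2 fold change in the upper-range mice minus that in the lower-range mice, were -5.93 for *Mmp13*, -4.67 for *Ifitm2*, -4.08 for *Mndal*, -3.76 for *Ms4a7*, -3.75 for *Cd300ld*, -3.61 for *Ms4a14* and -3.33 for *Emr4*. They were -3.10 for *AI607873*, -3.09 for *Cybb*, -3.02 for *Gp49a*, -2.71 for *Tnfsf18*, -2.62 for *Slamf7*, -2.61 for *Ifitm3*, -2.38 for *Scimp* and -2.36 for *Ccl7*. The smallest were -1.38 for *Zbp1*, a sensor of nucleic acids, -1.28 for *Slfn2*, -1.24 for *Wee1*, a kinase that delays mitosis, and 1.37 for *Csmd3*. The lower-range side of each rests on 2 Cre/+ TAM mice.

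A single Cre/+ TAM mouse lay far from the other 3 for 2 of 98 named genes and 2 of 35 lists, judged by the gap to the nearest mouse over the range of the group against Dixon's critical value, and chance gives about 1 in 20. *Thbs1*, which encodes thrombospondin, was lowest in Cre/+ TAM mouse 4 (4.78 against 4.95 to 4.98, ratio 0.885). *Cdk1*, the mitotic kinase, was highest in the same mouse (5.15 against 4.45 to 4.56, ratio 0.836). The mean over microglial transcription factors was lowest in Cre/+ TAM mouse 5 (8.13 against 8.28 to 8.29, ratio 0.926), and that over genes of the sex chromosomes was highest in Cre/+ TAM mouse 3 (6.71 against 6.61 to 6.63, ratio 0.832).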

How the results depend on the processing

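The number of clusters called higher (3) was 5 with median centring, 6 among clusters above the median signal, 1 with the spread of 12 TAM arrays, 1 with that of all 15 arrays, and 0 by the methods' unpaired test. The count of lower clusters at 2-fold or more (11) was 2 above the median signal and 7 by the methods' unpaired test. Clusters whose change differed between the sets numbered 2 higher with median centring, and 6 higher and 28 lower above the median signal. Leaving out 1 mouse gave 0 to 3 called higher, 0 to 0 called lower, 28 to 62 higher and 9 to 28 lower at 2-fold or more, and 0 to 9 higher and 5 to 173 lower differences. Over the alternatives the adjusted limma p ranged from 0.00384 to 0.108 for *Ctla2b*, 0.00637 to 0.321 for *Pf4* and 0.00384 to 0.52 for *Vcam1*. No named gene that was called changed direction, and quantile normalization and the second deposited table called the same 3 genes. The cause of these changes was not tested. No paired analysis was possible because the labels give no replicate numbers that the groups share. With 4 against 3 mice, 1 array decides most calls, and dim clusters carry most of the lower counts.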
